A study of Rattus norvegicus with 4 samples.

Results

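Interferon-stimulated genes are the transcripts that cells switch on after interferon has bound its receptor. The set described here holds 33 of them, chosen by symbol, and all 33 were found among the 32623 genes of the deposited matrix. The nuclei, sequenced by a single-nucleus RNA method, came from hearts of Sprague Dawley rats, tissue labelled infarct zone. There was 1 sham sample and 1 sample each named MI_1H, MI_6H and MI_24H (MI, myocardial infarction). The treatment labels of the last 3 read MI 1h, 6h and 24h reperfusion, whereas the series text gives those hours to ligation of the left anterior descending artery and lists reperfused hearts apart, and the 2 readings of the hours were not resolved. The sources used here do not state age, sex or how many rats stand behind a sample. The 4 libraries are told apart by barcode suffixes 1 to 4, which no source ties to the 4 samples. Libraries are therefore called 1 to 4, no library is given a condition, and with 1 library of each kind no test was made. Intervals are exact 95% intervals that cover counting error only.

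Interferons signal through paired receptors and the Janus kinases to STAT proteins. A complex that holds STAT2 and IRF9 binds the interferon-stimulated response element, a paired GAAA motif, while STAT dimers bind a separate palindromic site, and both switch on genes that block viral entry, translation and replication. In the injured heart the same programme is known from macrophages that take up nucleic acids of dying cells, and endothelial cells are among its responders elsewhere in the body.

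The members fall into 5 roles. Irf1, Irf7, Irf9 and Stat2 are transcription factors of the pathway. Ifih1 (MDA5), Ddx58 (RIG-I) and Dhx58 (LGP2) bind foreign RNA, Trim25 is the ubiquitin ligase that activates RIG-I, and Eif2ak2 (PKR) is a kinase that stops translation. The antiviral effectors are Mx1, Mx2, Ifit2, Ifit3, Rsad2 (viperin), Oasl, Oas1a, Oas2, Bst2 (tetherin), Gbp2, Gbp5, Cmpk2 and Xaf1. Isg15, a ubiquitin-like modifier, its protease Usp18, the ligase Herc6 and the ADP-ribosylation and ubiquitin genes Parp9, Parp14 and Dtx3l form the fourth group, and Ifi27, Ifi44, Rtp4, Sp110 and Tap1 the last. Mx1 and Mx2, Ifit2 and Ifit3, the Oas genes, and Gbp2 and Gbp5 belong to families of similar sequence, so how reads were divided inside each family is uncertain. No source used here says whether counting used strand.

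The response element can be looked for in the members' promoters. The members were chosen by symbol as interferon-stimulated genes, which this element helps to switch on, so its share is not independent of the choice. Promoter windows from 250 bases before to 50 after the gene start were matched by symbol for 25 of the 33 members (RefSeq, build GRCr8). Mx2, Ifit2, Isg15, Ddx58, Dhx58, Usp18, Oas2 and Rtp4 had no entry. The motif searched was GAAA, any 2 bases and GAAA again, on both strands, so that it reads TTTC, any 2 bases and TTTC on the opposite strand. It occurred in 16 of the 25 windows (64%), against 1034 of 27457 windows of all genes (3.77%). The STAT dimer motif TTCNNNGAA, which is its own reverse complement, occurred in 5 of the 25 windows (20%), against 2382 of all windows (8.68%). Rsad2 and Mx1 are shown because both were among the members that most often shared nuclei with the others, and the windows differ in this motif, which the Mx1 window lacks. The Rsad2 window lies at chr6:48788071-48788370 on the minus strand and the Mx1 window at chr11:50294557-50294856 on the minus strand. Both are written 5′ to 3′ along the gene, and capitals mark the match on the opposite strand, whose first base lies 147 bases before the Rsad2 start.
Rsad2: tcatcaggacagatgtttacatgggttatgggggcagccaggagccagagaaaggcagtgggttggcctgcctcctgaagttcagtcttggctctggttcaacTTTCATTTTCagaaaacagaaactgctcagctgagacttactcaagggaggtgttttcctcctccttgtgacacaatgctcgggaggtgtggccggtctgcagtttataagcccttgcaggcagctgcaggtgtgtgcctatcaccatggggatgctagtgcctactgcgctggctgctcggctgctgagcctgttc
Mx1: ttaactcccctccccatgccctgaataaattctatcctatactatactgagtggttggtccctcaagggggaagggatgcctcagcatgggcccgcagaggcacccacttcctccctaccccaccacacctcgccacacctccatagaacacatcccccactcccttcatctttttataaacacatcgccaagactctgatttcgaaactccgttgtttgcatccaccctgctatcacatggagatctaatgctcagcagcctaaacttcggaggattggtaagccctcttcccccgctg
Among other members, Gbp2 held TTTCACTTTC starting 31 bases before its start, Ifit3 held TTTCAGTTTC at 44 bases before and Ifih1 held GAAACAGAAA at 59 bases before. Oas1a held the overlapping pair GAAATGGAAA and GAAACTGAAA. Herc6 and Trim25 had no such paired GAAA in this window. A match describes these letters only.

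Libraries 1 to 4 kept 8364, 12898, 14288 and 6181 nuclei, whose median depth was 1296, 602, 1884 and 2215 counted RNA molecules (UMIs, unique molecular identifiers). They grouped into 28 clusters, and markers named 13 cell classes. The ending "-like" marks a name drawn from marker genes. Library 2 stood apart, since 87.8% of its nuclei lay in unnamed clusters and it had too few endothelial-like and macrophage-like nuclei for use. Of the barcode sequences, 264 occurred in more than 1 library. Clusters were largely split by library: endothelial-like nuclei came mainly from cluster 6 in library 1 and cluster 2 in libraries 3 and 4, macrophage-like nuclei from cluster 19 in library 1 and cluster 1 in libraries 3 and 4, and cardiomyocyte-like nuclei from clusters 4 (library 1), 23 (library 2), 8 and 14 (libraries 3 and 4). Fibroblast-like nuclei came mainly from cluster 5 in library 1, cluster 16 in library 2 and cluster 3 in libraries 3 and 4. A value that differs between libraries may therefore also differ by cluster, and the 2 cannot be told apart.

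The 33 members together took 129861 of 87548302 UMIs. Levels are counts per 1000000 UMIs of the same class and library (CPM), and summed over the members they were 1265, 1983, 1153 and 1964 CPM in libraries 1 to 4. Ifi27 was the most counted member (15980 UMIs, 12.3% of member UMIs), followed by Trim25 (11320 UMIs, 8.72%). Oas2 (501 UMIs) and Cmpk2 (800 UMIs) were counted least. UMI counts from transcript 3′ ends are not per length, so levels are compared between classes and libraries and not between genes.

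Endothelial-like nuclei held the largest summed member level of the 4 main classes in every library in which the class could be used. The sum was 3990 CPM (3916 to 4065) in library 1, 2087 CPM (2045 to 2129) in library 3 and 2900 CPM (2856 to 2944) in library 4, over 1909, 2119 and 1912 nuclei. Macrophage-like nuclei had 2388, 1148 and 2342 CPM in libraries 1, 3 and 4. Fibroblast-like nuclei had 1378, 1575, 903 and 1604 CPM in libraries 1 to 4, and cardiomyocyte-like nuclei had the least, 257, 947, 763 and 1046 CPM. Ifi27 alone made up 5.32, 20.8 and 18.7% of the endothelial-like sum in libraries 1, 3 and 4, so the libraries differed in which members carried it. The share of UMIs that free RNA or RNA of other cells could at most account for was 19.5, 64.4 and 45.6% in endothelial-like and 29.6, 49.9, 65.9 and 57.9% in cardiomyocyte-like nuclei of the same libraries.

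**Figure D1:**
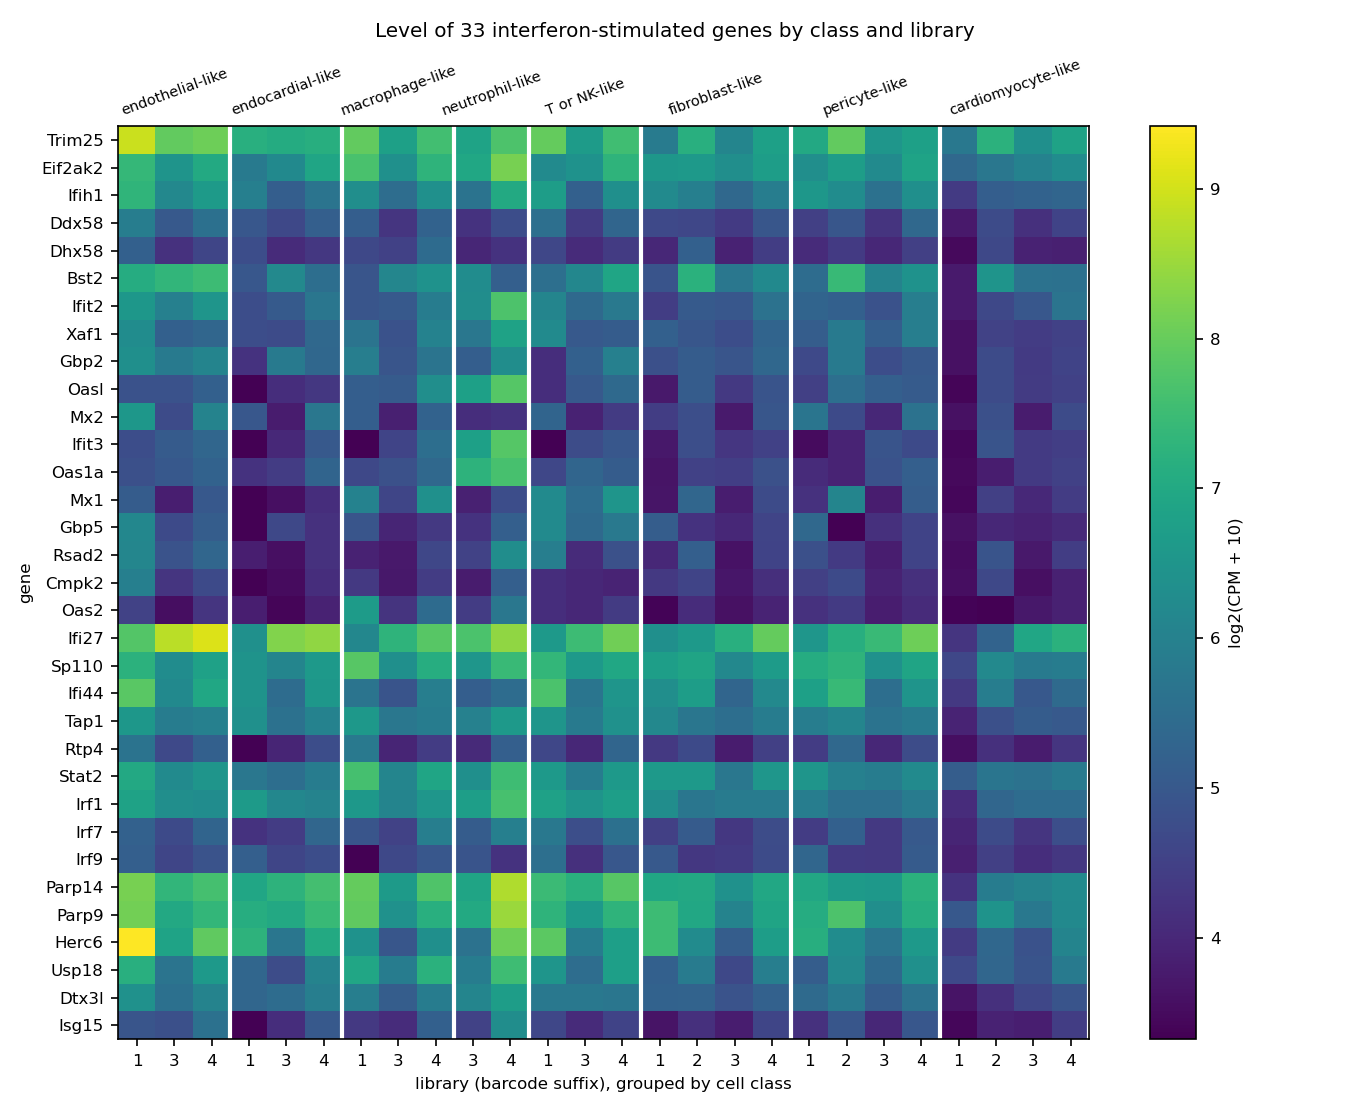
Level of each member (rows) in each class and library (columns), drawn as colour on a log2(CPM + 10) scale. Endothelial-like columns are high for most members, and the cardiomyocyte-like column of library 1 is low for nearly all.

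Each class was then compared with all other named nuclei of its own library, as the difference in log2(CPM + 10), and the median over libraries was taken. All 33 members had at least 30 UMIs in each of the 3 endothelial-like comparisons. Their median difference was 0.69, against -0.03 over all genes. Of the 33, 31 were higher in endothelial-like nuclei in each of the 3 libraries (29.5% of all genes were), every member except Oas2 and Mx1. A median difference of at least 2-fold was reached by 7 of 33 (4.48% of all genes): Herc6, Ifi27, Trim25, Bst2, Rsad2, Ifi44 and Mx2. None of the 33 was at least 2-fold lower (6.08% of all genes). The count of 7 rested on the choice of libraries and scale: it was 4 without library 1, 20 without library 3 and 21 without library 4, 14 with a pseudocount of 1 CPM and 19 once the upper estimate of free RNA was subtracted.

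The contrast was widest in library 1. There 31 of 33 members were at least 2-fold higher in endothelial-like nuclei (11% of all genes), with a median difference of 1.77. In library 3 it was 6 of 33 (3.81% of all genes) with a median of 0.58, and in library 4 it was 5 of 33 (3.22% of all genes) with a median of 0.59. By role, the median differences over libraries were 0.32 for the 4 transcription factors, 0.72 for the 5 RNA sensing genes, 0.59 for the 13 antiviral effectors, 0.77 for the 6 genes of the ISG15 and ADP-ribosylation group and 0.80 for the last 5. No role was carried by 1 gene alone: all members of every role but the antiviral effectors were higher in each library, and among those 11 of 13 were.

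Herc6, the ligase that attaches ISG15 in rodents, showed the widest difference. Its endothelial-like level was 675, 106 and 232 CPM in libraries 1, 3 and 4, against 62.7, 25.6 and 81.9 CPM in the other named nuclei. The ratios were 10.8 (9.90 to 11.7), 4.16 (3.71 to 4.66) and 2.84 (2.62 to 3.08). Ifi27, a small membrane protein induced by interferon alpha, had 212, 434 and 542 CPM in endothelial-like nuclei and 32.1, 146 and 217 CPM in the others, with ratios of 6.62, 2.96 and 2.50. Trim25 had 480, 237 and 259 CPM against 57.2, 81.4 and 117 CPM, with ratios of 8.38, 2.92 and 2.21. In all 3 genes the intervals of class and comparison did not overlap in any library.

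Bst2, which tethers budding virions, had 128, 151 and 171 CPM in endothelial-like nuclei against 11.9, 51.9 and 59.0 CPM. Rsad2, a radical enzyme that makes a chain-terminating nucleotide, had 59.6, 19.3 and 30.3 CPM against 4.04, 3.33 and 12.9 CPM. Ifi44 had 221, 64.8 and 114 CPM against 33.8, 26.2 and 54.8 CPM. Mx2, a dynamin-like restriction factor, had 84.0, 16.2 and 56.7 CPM against 8.23, 4.30 and 23.0 CPM. These 4 genes were thus higher in endothelial-like nuclei in each library, and Bst2 was the one whose endothelial-like level was lowest in library 1.

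Mx1 and Oas2 differed from the rest of the set. Mx1, the paralogue of Mx2, had 24.0, 4.16 and 22.2 CPM in endothelial-like nuclei and 3.65, 8.52 and 21.9 CPM in the others. Oas2, a synthetase of the RNase L activator, had 13.1, 1.75 and 9.13 CPM against 2.41, 4.48 and 8.19 CPM. Both were higher in library 1, lower in library 3 and close to even in library 4, where the interval of the ratio spanned 1 (0.82 to 1.25 for Mx1, 0.79 to 1.56 for Oas2).

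**Figure D2:**
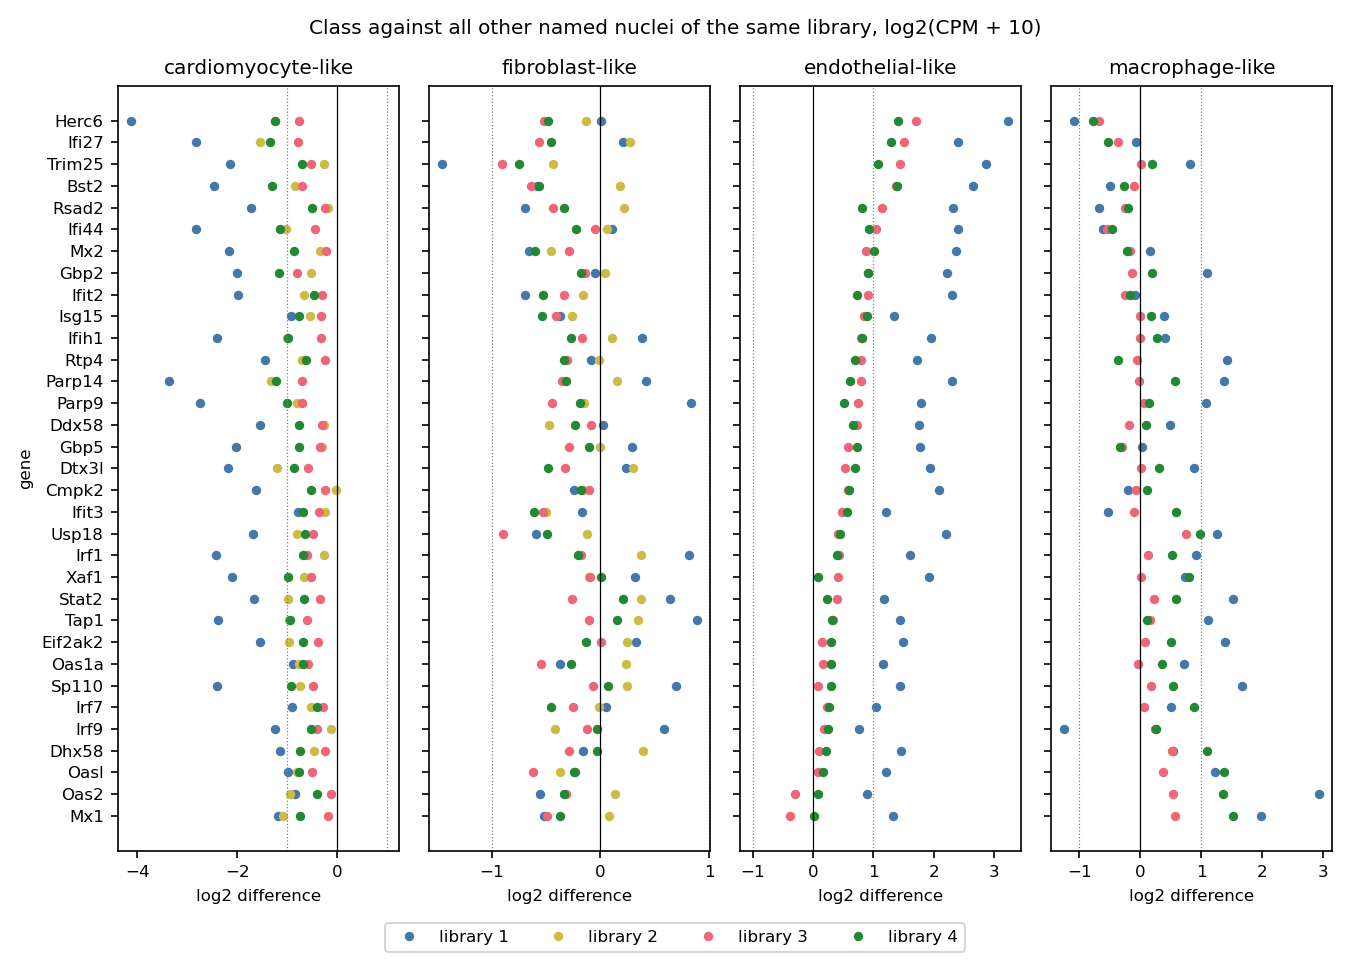
Difference of each member between a class and all other named nuclei of the same library, in log2(CPM + 10), with 1 dot per library and dotted lines at 2-fold. Endothelial-like dots lie right of 0 for every member but Mx1 and Oas2 in library 3, and cardiomyocyte-like dots lie left of 0 for all.

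In macrophage-like nuclei the members were less uniform. Their median difference was 0.20, against -0.05 over all genes, and 16 of 33 were higher in each of the 3 libraries (28.4% of all genes) while 6 of 33 were lower in each (32.4% of all genes). Only 3 of 33 reached a median of 2-fold higher (5.24% of all genes), Mx1, Oas2 and Oasl, and the first 2 are the genes that set endothelial-like nuclei apart least. Without library 1 the count was 1, and without library 3 it was 6. Mx1 had 55.7, 14.3 and 73.0 CPM in libraries 1, 3 and 4 against 6.61, 6.28 and 18.7 CPM, with ratios of 8.42 (4.08 to 15.7), 2.28 (1.79 to 2.89) and 3.90 (3.04 to 4.95). Oas2 had 91.1, 8.79 and 33.5 CPM against 3.17, 2.91 and 6.88 CPM, the first from 18 UMIs. Oasl, an OAS-like protein without synthetase activity, had 25.3, 23.7 and 70.4 CPM against 5.12, 15.9 and 21.1 CPM. At the other end, Herc6 had 75.9, 21.0 and 72.1 CPM against 172, 39.3 and 130 CPM, and Ifi44 had 40.5, 20.1 and 50.7 CPM against 67.1, 33.8 and 73.7 CPM. The 4 transcription factors had a median difference of 0.51, and 3 of the 4 were higher in each library. Irf9 and Ifit3 had no UMI in the 207 macrophage-like nuclei of library 1, which by the limit of 3 counts allows a level of up to 15.2 CPM for each. Per library, 12, 0 and 4 of 33 members were at least 2-fold higher (16.2, 2.93 and 6.1% of all genes).

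Neutrophil-like nuclei could be used in libraries 3 and 4 only, with 720 and 117 nuclei. The members summed to 1839 and 4262 CPM there. Their median difference was 0.61, against -0.21 over all genes, and 10 of 33 were at least 2-fold higher (4.29% of all genes): Oas1a, Ifit3, Oasl, Ifit2, Xaf1, Irf1, Parp9, Dtx3l, Oas2 and Rsad2. Of these, 7 are antiviral effectors. Higher levels in both libraries were seen in 26 of 33 members (22.7% of all genes). Oas1a, a synthetase of the RNase L activator, had 143 and 191 CPM against 15.3 and 22.2 CPM, with ratios of 9.33 (7.75 to 11.2) and 8.60 (5.33 to 13.2). Ifit3 had 99.7 and 217 CPM against 12.9 and 20.4 CPM. Oasl had 99.7 and 217 CPM against 15.2 and 22.9 CPM. Bst2 had the lowest median difference of the set there (-0.71), with 68.6 and 26.0 CPM against 63.9 and 92.8 CPM. The upper estimate of free or foreign RNA was 88.5 and 81.9% in this class, and its part in these values was not tested.

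Cardiomyocyte-like nuclei had the lowest levels. Of 33 members 31 had enough UMIs in all 4 libraries, and 31 of 31 were lower than in the other named nuclei in each (62.4% of all genes were), with a median difference of -0.78 against -0.34 over all genes. A median of at least 2-fold lower was reached by 6 of 31 (7.55% of all genes): Ifi27, Parp14, Herc6, Ifi44, Bst2 and Dtx3l. Ifi27 had 9.32, 28.2, 112 and 139 CPM in libraries 1 to 4 against 127, 102, 197 and 370 CPM. Parp14, a mono-ADP-ribosyltransferase, had 8.60, 49.4, 56.6 and 65.1 CPM against 182, 138, 98.8 and 164 CPM. The smallest differences were those of Rsad2 (1.55, 20.2, 3.32 and 11.4 CPM against 28.0, 24.2, 5.71 and 20.3 CPM), Cmpk2, the nucleotide kinase encoded beside it (1.79, 15.1, 1.88 and 4.86 CPM against 26.0, 15.4, 3.98 and 11.2 CPM), and Irf9 (4.54, 12.1, 7.37 and 9.93 CPM against 24.2, 14.1, 12.7 and 18.6 CPM). By library, 27, 6, 0 and 6 members were at least 2-fold lower (23.5, 12.6, 0.33 and 4.52% of all genes), so library 1 held most of the contrast. The count of 6 became 16 with a pseudocount of 1 CPM, 19 with free RNA subtracted and 1 with median-of-ratios scaling.

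In fibroblast-like nuclei none of the 31 members tested was at least 2-fold higher (4.58% of all genes) or at least 2-fold lower (5.27% of all genes). Their median difference was -0.16, against 0.13 over all genes, and 9 of 31 were lower in each of the 4 libraries (19.6% of all genes) while none was higher in each (40% of all genes). Stat2 had 89.0, 87.6, 43.1 and 81.5 CPM against 53.4, 65.3, 53.6 and 69.4 CPM, which was higher in 3 libraries and lower in library 3. Tap1, a subunit of the peptide transporter for antigen presentation, had 62.3, 42.8, 36.3 and 49.4 CPM against 29.0, 31.5, 39.7 and 43.4 CPM. Sp110, a nuclear body protein, had 96.2, 107, 62.0 and 92.3 CPM against 55.6, 89.3, 65.3 and 87.5 CPM. Trim25 was lower in each library, with 48.5, 134, 58.6 and 101 CPM against 150, 185, 119 and 177 CPM. Bst2 had 20.1, 138, 43.6 and 64.8 CPM against 35.1, 120, 73.1 and 101 CPM, higher in library 2 and lower elsewhere.

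T or NK cell-like nuclei had 2 of 33 members at least 2-fold higher by the median (2.26% of all genes). These were Mx1, with 66.0, 34.4 and 80.3 CPM in libraries 1, 3 and 4 against 6.71, 7.25 and 20.8 CPM, and the guanylate-binding Gbp5, with 66.0, 32.5 and 45.5 CPM against 19.1, 7.63 and 14.6 CPM. In pericyte-like and endocardial-like nuclei no member differed by 2-fold in either direction (2.15 and 2.46% of all genes higher and lower in the former, 3.09 and 5% in the latter). Endocardial cells line the chambers and share markers with vessel endothelium, yet their summed member levels were 1292, 1359 and 1926 CPM in libraries 1, 3 and 4, below those of endothelial-like nuclei in each.

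Levels of the members also differed between libraries inside a class. The span was the gap between the highest and the lowest library in log2(CPM + 10). In endothelial-like nuclei it was at least 2-fold for 12 of 33 members (19.2% of all genes), in macrophage-like for 21 of 33 (27.2%), in fibroblast-like for 16 of 33 (28.3%) and in cardiomyocyte-like for 22 of 33 (35.5%). In neutrophil-like nuclei it was 13 of 22 (11.9% of all genes). Library 3 was the lowest for 28 of 33 members in endothelial-like nuclei (27.2% of all genes), for 27 of 33 in macrophage-like (29.9%) and for 20 of 33 in fibroblast-like nuclei (19.8%). Library 1 was the lowest for 32 of 33 in cardiomyocyte-like nuclei (62.9% of all genes) and the highest for 26 of 33 in endothelial-like nuclei (31.5%). The same library thus held the highest endothelial-like and the lowest cardiomyocyte-like levels. These sums over nuclei do not by themselves tell fewer expressing nuclei from less RNA per nucleus.

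In endothelial-like nuclei the widest spans were those of Herc6, whose 675 (645 to 707), 106 (97.2 to 116) and 232 (220 to 245) CPM did not overlap, of Mx2 (84.0, 16.2 and 56.7 CPM) and of Cmpk2 (52.4, 9.20 and 15.7 CPM). All 3 were highest in library 1 and lowest in library 3. In macrophage-like nuclei they were Oas2 (91.1, 8.79 and 33.5 CPM), Ifit3 (0, 13.9 and 36.1 CPM) and Rtp4, a receptor transporter (45.5, 5.52 and 11.2 CPM, the first from 9 UMIs). In fibroblast-like nuclei Herc6 had 171, 66.5, 24.9 and 94.9 CPM in libraries 1 to 4, while Bst2 (20.1, 138, 43.6 and 64.8 CPM) and Mx1 (2.77, 30.3, 4.07 and 16.1 CPM) were highest in library 2. In cardiomyocyte-like nuclei Ifi27 (9.32, 28.2, 112 and 139 CPM), Bst2 (3.58, 79.7, 39.0 and 38.7 CPM) and Parp14 (8.60, 49.4, 56.6 and 65.1 CPM) were lowest in library 1. Herc6 therefore did not order the libraries as Bst2 did. The fibroblast-like set of library 2, 724 nuclei here, held 65 nuclei with interferon genes kept in the clustering and 74 without doublet removal, too few for use, so its values rest on the clustering chosen.

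Next it was asked whether members occurred in the same nuclei. For each member and set (1 class in 1 library), the product of its UMIs and the UMIs of the other members was summed over nuclei. That sum was divided by the value that the total UMIs of all nuclei of the set alone would give. A ratio of 1 therefore means no more than depth, but other genes need not lie at 1, so their median is given as well. In endothelial-like nuclei the median member's ratio was 1.79, 1.27 and 1.75 in libraries 1, 3 and 4, against 0.97, 1.00 and 0.97 over all other genes. Ratios above 1.5 were found for 23 of 33, 5 of 31 and 23 of 33 members (3.04, 0.365 and 0.635% of other genes). Within the largest endothelial-like cluster of each library the medians were 1.70, 1.28 and 1.70. The endothelial markers themselves had medians of 0.98, 1.09 and 1.01, and macrophage markers 0.87, 0.85 and 0.86.

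The strongest endothelial-like ratios in library 1 were those of Mx1 (4.22), Gbp5 (4.21), Gbp2 (3.91), Ifit3 (3.47) and Isg15 (2.96). In library 4 the same genes had 2.84, 2.28, 1.83, 2.21 and 2.03. In library 3 Gbp5 had 1.80, Gbp2 1.65, Ifit3 1.28 and Isg15 1.48, all lower than in the other libraries, and Mx1 had fewer than 30 UMIs. Usp18, which removes ISG15 and dampens the receptor, had 2.24, 2.01 and 2.09 in libraries 1, 3 and 4, and Mx2 had 1.93, 2.08 and 2.53. Irf1, a factor also induced by interferon gamma, had 2.57 in library 1 but 1.17 and 1.18 in libraries 3 and 4. Trim25, among the members highest in the class, had 1.02, 1.07 and 1.20, below the median member in each library. Ifi27 had 1.22, 1.27 and 1.29, below the median member in libraries 1 and 4 and beside it in library 3. The 95th percentile of other genes was 1.39, 1.22 and 1.22, so Ifi27 lay above it in libraries 3 and 4 and Trim25 in none.

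**Figure D3:**
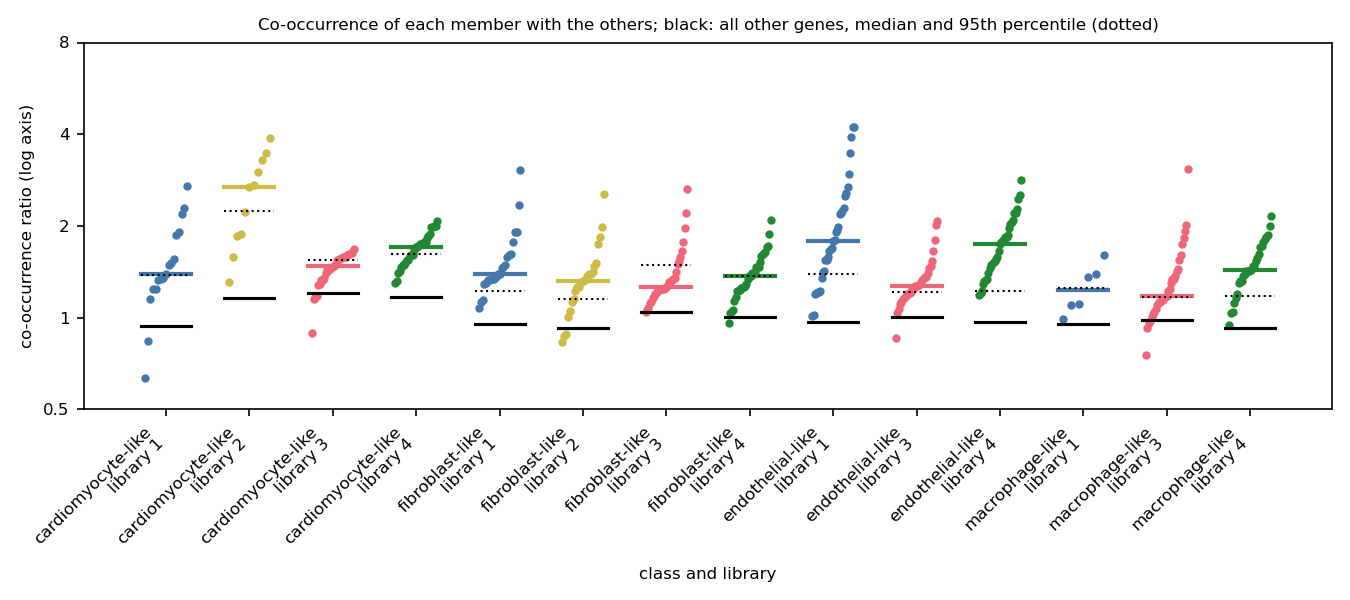
Co-occurrence ratio (y, log axis) of members with at least 30 UMIs in each main class and library (x), where 1 is what depth alone gives. Each dot is a member, sorted by value within its set, and the coloured line is the median member. Black lines mark all other genes, solid at their median and dotted at their 95th percentile. In each endothelial-like set the median member lies above the dotted line.

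Over all sets in which a member had at least 30 UMIs, the 10 highest median ratios were those of Mx2 (1.97, 14 sets), Mx1 (1.89, 13), Oas2 (1.83, 5), Cmpk2 (1.79, 7), Usp18 (1.70, 22), Rsad2 (1.65, 8), Isg15 (1.63, 11), Herc6 (1.63, 28), Dhx58 (1.57, 11) and Rtp4 (1.54, 9). The lowest were Ifi27 (1.13, 28 sets), Bst2 (1.11, 28) and Oas1a (1.06, 15). Members entered different sets, whose own medians ran from 0.87 to 2.96, so this order depends also on which sets a member entered. Genes outside the set were ranked in the same way when they had at least 50 UMIs in at least 10 sets, which 8579 did. The 5 highest were AABR07025140.1, listed as Ddx60 among the reference synonyms (1.92, 17 sets), Slc26a10 (1.55, 15), Rnf213 (1.53, 28), Oas1k (1.51, 11) and the interferon-induced GTPase Igtp (1.48, 20). Of these 5, 3 were on the wider interferon lists, which hold 69 of the 8579 genes ranked.

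The other classes were described in the same way. Over all other genes the median ratios were 0.97 and 0.99 in endocardial-like nuclei of libraries 3 and 4. In libraries 1, 3 and 4 they were 0.96, 0.98 and 0.93 in macrophage-like and 1.34, 1.03 and 1.03 in pericyte-like nuclei. In libraries 1 to 4 they were 0.95, 0.93, 1.04 and 1.00 in fibroblast-like and 0.94, 1.16, 1.21 and 1.16 in cardiomyocyte-like nuclei. Endocardial-like nuclei, the class closest to the endothelial-like, had medians of 1.33 in library 3 and 1.36 in library 4, with 7 of 16 and 5 of 22 members above 1.5 (2.7 and 0.5% of other genes). Their median of library 3 was above the endothelial-like 1.27 there, and that of library 4 was below the endothelial-like 1.75. Gbp2 (6.13, 76 UMIs), Herc6 (2.77, 68 UMIs) and Irf1 (2.74, 98 UMIs) had the highest endocardial-like ratios in library 3. A few nuclei can set a ratio that rests on so few UMIs. The endothelial markers had medians of 0.95 and 1.04 in endocardial-like nuclei of libraries 3 and 4. Macrophage-like medians were 1.23, 1.18 and 1.43 in libraries 1, 3 and 4, with 1 of 6, 7 of 31 and 11 of 28 members above 1.5 (0.774, 0.183 and 0.481% of other genes). Fibroblast-like medians were 1.39, 1.32, 1.26 and 1.37, with 8 of 23, 5 of 23, 7 of 31 and 9 of 32 above 1.5 (1.01, 0.209, 4.82 and 2.52%). There the 9 endothelial markers had median ratios of 1.34, 0.88, 2.12 and 1.58 with the members. Cardiomyocyte-like medians were 1.39, 2.69, 1.47 and 1.71, with 7 of 17, 10 of 11, 12 of 28 and 23 of 30 above 1.5 (3.61, 23.3, 7.39 and 8.44%). In those sets the endothelial markers had medians of 2.02, 3.63, 1.60 and 1.83, of which 7 of 9, 7 of 8, 6 of 9 and 8 of 9 exceeded 1.5. Their summed levels were 172, 751, 834 and 1576 CPM, against 9618, 6418 and 7526 CPM in endothelial-like nuclei of libraries 1, 3 and 4, and none of the 9 was at 0 in any. In pericyte-like nuclei of libraries 1, 3 and 4 the medians were 2.96, 1.34 and 1.52, and 13 of 13, 3 of 14 and 9 of 18 members exceeded 1.5 (39.3, 2.5 and 4.39% of other genes). So did 9 of 9, 9 of 9 and 6 of 9 endothelial markers, which summed to 1635, 1205 and 2351 CPM. The part of endothelial RNA in these cardiomyocyte-like, fibroblast-like and pericyte-like ratios was not tested. In T or NK cell-like nuclei of libraries 3 and 4 the median members were at 1.01 and 0.95, and none of 18 and of 13 was above 1.5 (0.678 and 0.117% of other genes).

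To count nuclei that held many members, 1000 UMIs were drawn at random from every nucleus with at least 1000 (thinning), which left out 931, 183 and 211 shallower endothelial-like nuclei. At least 3 different members were then found in 52.4, 27.4 and 34.9% of endothelial-like nuclei in libraries 1, 3 and 4. Cardiomyocyte-like nuclei gave 0.697, 4.83, 3.39 and 8.06% in libraries 1 to 4 at the same depth. Members that fell independently at their own detection rates would have given 62.5, 27.8 and 43.6% in endothelial-like nuclei, so the observed shares were lower at this count in libraries 1 and 4. At 8 or more members, a count chosen after the values were seen, the order turned. Library 1 had 53 of 978 such endothelial-like nuclei (5.42%, interval 4.09 to 7.03%), where independent members give 0.708%. Library 4 had 66 of 1701 (3.88%, 3.01 to 4.91%), where they give 0.131%. Library 3 had 13 of 1936 (0.671%), where they give 0.0184%. In 20 other random draws, added after the values were seen, the counts ran from 45 to 62 in library 1, from 68 to 83 in library 4 and from 5 to 16 in library 3. Before thinning the shares with at least 8 members were 11.7, 6.37 and 22.8% in libraries 1, 3 and 4.

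Raw shares of nuclei with 8 or more members were lower in the other main classes of the same library, where independent members also give less. Macrophage-like nuclei had 0 of 63, which allows a share of up to 4.76% (3 counts), 3 of 3810 (0.0787%) and 10 of 508 (1.97%) in libraries 1, 3 and 4. Fibroblast-like nuclei had 8 of 1216 (0.658%), 2 of 611 (0.327%), 0 of 3031 and 4 of 1023 (0.391%) in libraries 1 to 4. Cardiomyocyte-like nuclei had 2 of 720 (0.278%) in library 4 and none among 2583, 352 and 1120 in libraries 1 to 3, which allows up to 0.116, 0.852 and 0.268%. Endocardial-like nuclei of library 3 had 1 of 481 (0.208%), where independent members give 0.000393%. At least 3 members were found in 9.98% of those 481, where independent members give 9.90%. The endothelial-like shares of libraries 1 and 4 had intervals above those of fibroblast-like and cardiomyocyte-like nuclei in the same libraries, while the macrophage-like interval of library 4 (0.948 to 3.59%) overlapped that of endothelial-like nuclei there. Independent members give 0.0669% in macrophage-like nuclei of library 4, and 0.00101 and 0.00508% in fibroblast-like nuclei of libraries 1 and 4. Shares above independence were thus not particular to endothelial-like nuclei. Pericyte-like nuclei had 1 of 243, 1 of 81, 0 of 400 and 5 of 283 in libraries 1 to 4. The last share (1.77%, 0.576 to 4.07%) overlapped the endothelial-like interval, where independent members give 0.0104%.

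**Figure D4:**
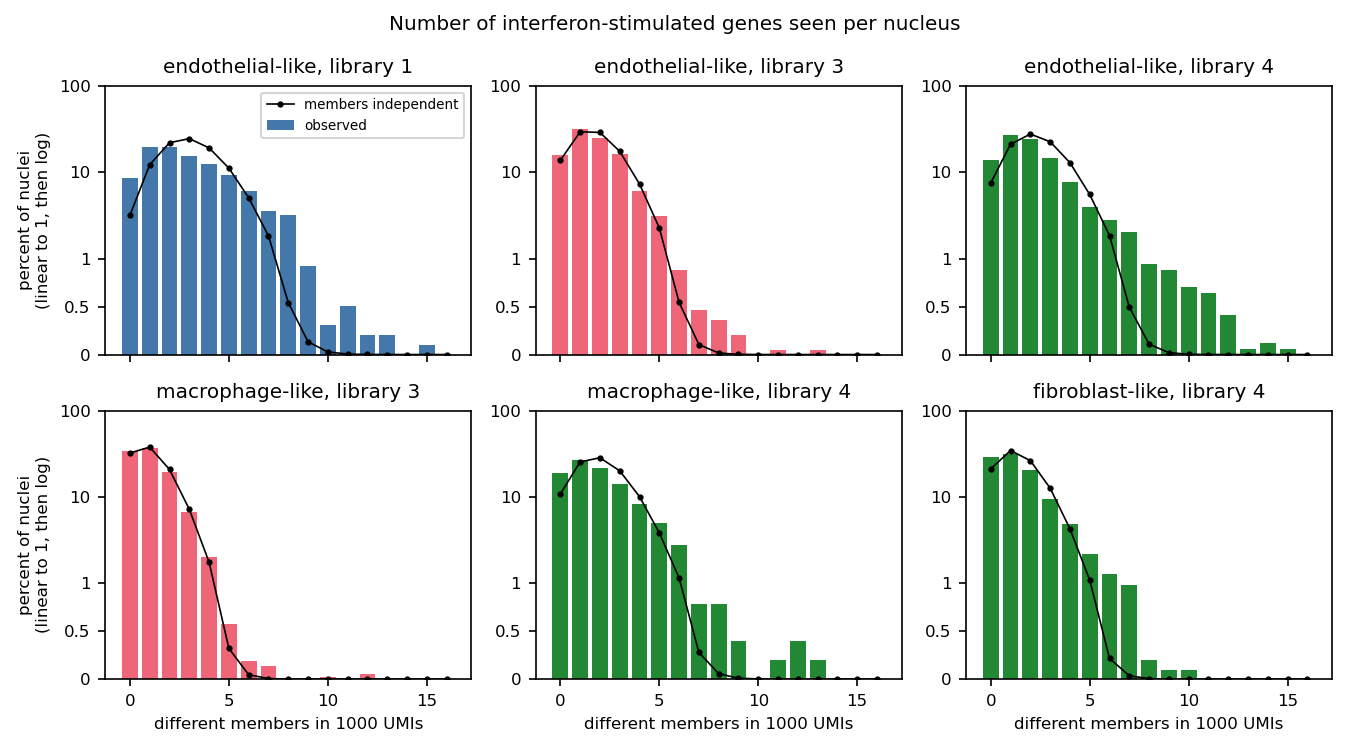
Share of nuclei (percent, y, linear up to 1 and log above) by number of different members detected after thinning to 1000 UMIs (x), for 6 class and library sets, beside the shares that independent members give. In endothelial-like nuclei of libraries 1 and 4 the right tail holds 5.42% and 3.88% of nuclei at 8 or more members.

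The nuclei with at least 8 members were compared with the other thinned endothelial-like nuclei for genes outside the set, with all their UMIs counted. Their member levels were fixed by the choice and are given as description only. After thinning, Herc6 was seen in 88.7% of the 53 and 32.3% of the 925 others in library 1, and in 69.7% of the 66 and 13.5% of the 1635 others in library 4. Median depth was 1746 against 1722 UMIs in library 1 and 2290 against 2625 UMIs in library 4. Median doublet scores were 0.0298 against 0.0351 and 0.0256 against 0.0417. Of the 53 nuclei of library 1, 52 lay in cluster 6 and 1 in cluster 18, against 817 and 91 of the 925 others. The 66 of library 4 lay in clusters 2 (59), 6 (6) and 18 (1), against 1409, 27 and 199 of the 1635 others, so the chosen nuclei were spread differently over the endothelial-like clusters.

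Of 115 genes found from the wider interferon lists, 73 in library 1 and 87 in library 4 had at least 30 UMIs in these nuclei together. At least 2-fold higher in the chosen nuclei were 26 of 73 (2.45% of all genes) and 37 of 87 (2.29% of all genes). The minimum of 30 UMIs included the chosen nuclei, so a gene could pass only through them. Cxcl10 and Cxcl9 in library 1 and Ifit1 in library 4 did so. They are included here and among the other interferon-stimulated genes below. At least 2-fold lower were 0 of 73 (8.97% of all genes) and 2 of 87 (7.74% of all genes), the receptor chain Ifnlr1, with 1 UMI in the chosen nuclei, and the factor Irf3. Over the 20 other draws, 22 to 30 and 30 to 38 genes were 2-fold higher. In the main draw nearly all were other interferon-stimulated genes, 25 of 52 and 33 of 56. The receptors and JAK-STAT genes had 0 of 9 and 0 of 10, the nucleic acid sensing genes 0 of 5 and 2 of 11 (Cgas and Tlr3), and the negative regulators 1 of 7 and 2 of 10. Inside cluster 6 alone 27 of 73 genes of the wider lists were at least 2-fold higher in library 1 (2.5% of all genes), and inside cluster 2 alone 33 of 86 in library 4 (2.4% of all genes), an alternative added after the values were seen.

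Cxcl10 and Cxcl9, chemokines that draw T cells, had enough UMIs in library 1 only through the chosen nuclei, so their differences are given as description. Cxcl10 had 251 CPM in the 53 nuclei (30 UMIs) and 2.04 CPM in the others (4 UMIs), and Cxcl9 had 318 CPM (38 UMIs) and 6.11 CPM (12 UMIs). Over the other draws the chosen nuclei had 209 to 321 CPM of Cxcl10 and 278 to 406 CPM of Cxcl9. In library 4 both had too few UMIs for the comparison, 2 and 24 UMIs for Cxcl10 and 0 and 6 for Cxcl9. Samd9, an antiviral restriction factor, had 235 against 40.2 CPM in library 1 and 249 against 47.0 CPM in library 4. The immune checkpoint ligand Cd274 had 352 against 119 CPM in library 1 and 164 against 67.9 CPM in library 4. Nlrc5, the activator of MHC class I genes, had ratios of 3.43 (2.43 to 4.75) and 4.45 (2.67 to 7.08) in libraries 1 and 4.

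Genes that were high in the chosen nuclei of both libraries included Rnf213, a giant ubiquitin ligase, with 1131 against 347 CPM in library 1 and 1196 against 199 CPM in library 4. AABR07025140.1 had 1156 against 334 CPM and 815 against 80.8 CPM. Igtp, an interferon-induced GTPase, had 670 against 215 CPM and 566 against 94.5 CPM, and Ifi44l had 126 against 37.2 CPM and 143 against 17.3 CPM. Adar, the RNA-editing enzyme that restrains RNA sensing, had 411 against 141 CPM and 259 against 90.9 CPM. Ifit1 had no UMI in the 53 nuclei of library 1 and 4 in the others, too few for the comparison. In library 4 Ifit1 had 52.9 CPM (10 UMIs) against 3.67 CPM (20 UMIs). It had enough UMIs there only through the chosen nuclei, so its difference is given as description. For Ifnar1 the interval of the ratio spanned 1 in both libraries, 1.49 (0.95 to 2.25) and 0.65 (0.38 to 1.04).

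Endothelial marker sums were 8539 CPM in the chosen nuclei against 9824 CPM in library 1, and 8918 against 7517 CPM in library 4, with none of 9 markers at 0. Epicardial markers summed to 511 against 299 CPM in library 1 and to 217 against 98.6 CPM in library 4, where every UMI of the chosen nuclei was Wt1 and the other 4 of 5 were at 0. Endocardial markers summed to 1776 against 1201 CPM and to 1111 against 958 CPM, most of it Hmcn1, with 2 of 6 and 1 of 6 at 0. The neutrophil marker sum was 33.5 against 49.9 CPM in library 1, with 6 of 9 markers at 0 in the chosen nuclei, among them Csf3r and Cxcr2, and 418 against 458 CPM in library 4, with 4 of 9 at 0. Macrophage marker sums were 159 against 103 CPM with 4 of 10 markers at 0 in library 1, and 439 against 584 CPM with 1 of 10 at 0 in library 4. T or NK cell markers summed to 16.8 against 18.8 CPM with 7 of 9 at 0, and to 21.2 against 20.9 CPM with 6 of 9 at 0. Other endothelial genes also differed in library 4: Fabp4, a fatty acid binding protein of capillaries, had 3154 against 1004 CPM, the water channel Aqp1 1535 against 396 CPM and the protease inhibitor Timp4 243 against 50.7 CPM. Inside cluster 2 these were 2999 against 1037, 1570 against 429 and 216 against 49.0 CPM. Inside cluster 6 of library 1 Fabp4 had 1680 against 1488 CPM and Aqp1 681 against 530 CPM. The part of endothelial subtype in the library 4 values was not tested.

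**Figure D5:**
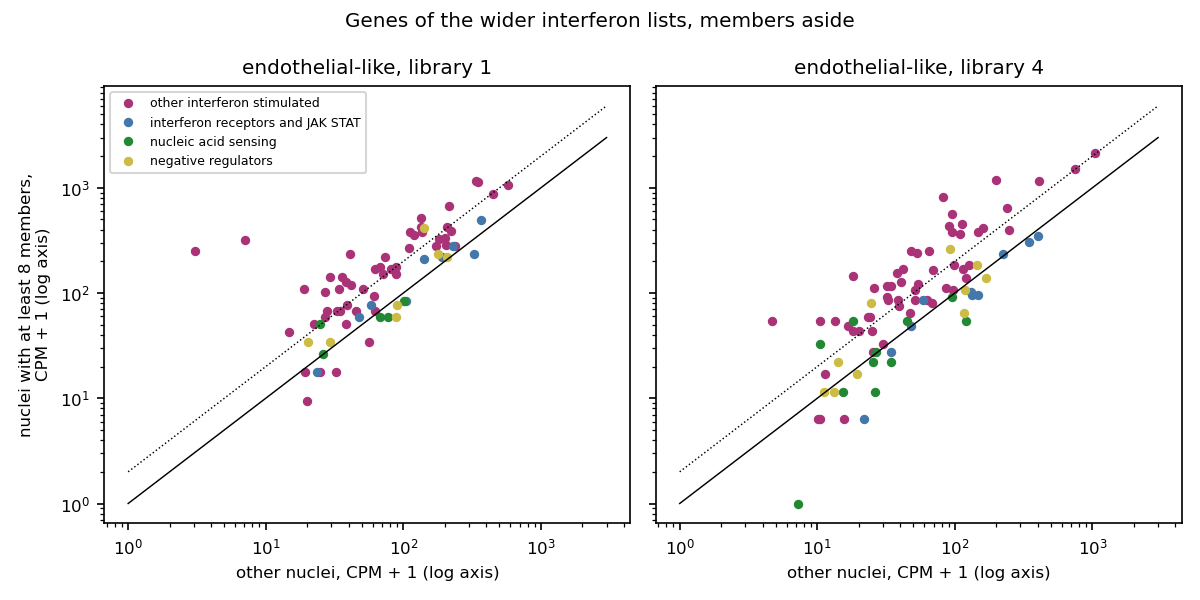
Level of each wider interferon gene, CPM + 1 on log axes, in endothelial-like nuclei with at least 8 members (y) against the other thinned nuclei (x) of libraries 1 and 4, with 1 dot per gene, a solid line at equal levels and a dotted line at 2-fold. Other interferon-stimulated genes lie mostly above the solid line, and receptor and JAK-STAT genes lie below the dotted line, with Ifnlr1 the farthest below the solid line among them in library 4 (log2 difference -1.02).

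The interferons themselves were barely detected. Ifnb1, Ifna2, Ifna4, Ifna5, Ifna11, Ifna16l1, Ifnl1 and Ifnl3 had no UMI in 41731 nuclei, which by the limit of 3 counts allows a UMI in up to 0.00719% of nuclei for each. Ifng had 5 UMIs, 2 in library 1 and 3 in library 3, Ifne had 1 and Ifnk had 27.

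Among receptor genes, Ifnar2, a chain of the type I interferon receptor, was higher in endothelial-like nuclei in each library, with 181, 134 and 132 CPM in libraries 1, 3 and 4 against 32.1, 64.5 and 67.5 CPM. Ifnar1, the other chain, had 144, 181 and 143 CPM there against 58.1, 186 and 119 CPM, and 111, 282 and 264 CPM in macrophage-like nuclei against 72.8, 159 and 118 CPM. Ifngr1, a chain of the interferon gamma receptor, was nearly level at 226, 223 and 224 CPM in endothelial-like and at 288, 277 and 286 CPM in macrophage-like nuclei. Ifngr2, its partner, had 55.7, 102 and 88.4 CPM in macrophage-like nuclei against 11.9, 54.5 and 37.2 CPM, and 198 and 251 CPM in neutrophil-like nuclei of libraries 3 and 4 against 60.7 and 39.0 CPM.

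The wider lists were less uniform over classes than the members. In endothelial-like nuclei their median difference was 0.28 over 92 genes tested, and 53 of 92 were higher in each library (29.5% of all genes). At least 2-fold higher were 6 of 92 (4.48% of all genes), Ifitm3, Lgals9, AABR07025140.1, Slfn5, Tnfsf10 and Apol3, a share near that of all genes, and none was at least 2-fold lower (6.08% of all genes). The other interferon-stimulated genes had a median of 0.44 there, whereas the nucleic acid sensing genes had -0.25 and none of 12 was 2-fold different. In macrophage-like nuclei the nucleic acid sensing genes had a median of 0.73, and 4 of 12 were at least 2-fold higher (5.24% of all genes), Ikbke, Irf5, Irf8 and Tlr7. In neutrophil-like nuclei 18 of 97 genes of the wider lists were at least 2-fold higher (4.29% of all genes).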

How the data were processed

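Nuclei were isolated by Dounce homogenisation in lysis buffer, per the labels' protocols. The authors deposited unnormalized UMI counts for every gene in every nucleus, and per the file headers cellranger 5.0.1 wrote them. The submitters' processing notes name Cell Ranger 6.1.1, Seurat and rn7, and which build lies behind the counts was not resolved. Gene positions and promoters come from RefSeq's GRCr8 and were matched by symbol.

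Barcodes needed 500 UMIs and 300 genes, with mitochondrial UMIs not above 10%, which 46590 of 48637 met. Doublets were scored per library with scrublet in scanpy 1.11.5, and the top 0.8% per 1000 nuclei were removed (649, 1705, 2165 and 340). Members and wider interferon genes were left out of the 2000 variable genes, and 30 components, 15 neighbours and Leiden resolution 1 gave the clusters. A cluster was named, by a rule set after clusters were seen, when at least 3 markers of a class were 2-fold higher and seen in 5% of nuclei and the class led the next by 0.5 log2.

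UMIs were summed per class and library. A class and library set was used from 100 nuclei on, and a gene from 30 UMIs on. The pseudocount was 10 CPM. Free RNA shares are those at which subtracting the library profile brings other classes' markers to 0, an upper estimate. Thinning used 1 seeded draw per nucleus. Intervals are exact Poisson for levels, conditional binomial for ratios and Clopper-Pearson for shares. Where nothing was counted, the limit is 3 counts of the total. Genes named singly are, in each main class, the 3 highest and 2 lowest members and the 3 widest spans, the 10 highest co-occurrence ratios and 5 outside genes. The other named genes, the minimum of 10 sets for outside genes and the description of neutrophil-like nuclei were chosen after values were seen. Members, lists and markers were chosen with earlier results of these data known. Steps were tested on simulated data.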

Additional observations from a re-analysis of the deposited data

Results flagged for a closer look

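Member UMIs were also counted in nuclei that no comparison between classes used, those of clusters without a class name. In library 2 the members summed to 2112 CPM in cluster 0 (10310 nuclei, median 575 UMIs) and to 2169 CPM in cluster 10 (1006 nuclei). In cluster 7 they summed to 1235 CPM in library 3 (685 nuclei) and to 2124 CPM in library 4 (650 nuclei). Each was picked out because the signal lies in data outside the comparisons and above the limit that a count of 0 allows. The median co-occurrence ratios of the members there were 1.07, 0.87, 1.05 and 1.34. Genes that lead cluster 7 include the heat shock gene Hspa1b, the muscle genes Acta1 and Mb and the haemoglobin genes Hba-a2 and Hba-a3. Cluster 0 is led by Cd300le and the mitochondrial Mt-atp8, and Cybb, Ctsc and Laptm5 are also among its leading genes. Genes that lead cluster 10 include Retnlg, Hspa1b and Shank3. The marker classes that scored highest were erythroid in cluster 7, macrophage in cluster 0 and endothelial in cluster 10, but none of them met the naming rule. In cluster 10 only 1 endothelial marker passed, where 3 were needed. There 0 of 32 members had a co-occurrence ratio above 1.5 (0.0585% of other genes). At 8 or more members cluster 10 had 11 of 832 thinned nuclei (1.32%), where independent members give 0.0692%.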

How the results depend on the processing

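No paired analysis was possible because the 4 samples have 1 library each and none is tied to a barcode suffix. Among the differences of at least 2-fold in the main analysis, none changed direction under any alternative. Smaller differences, counts and shares were not checked for direction. Of the values that answer a comparison, 182 stayed within their limits and 50 moved. Where a cause is not plain from the alternative itself, the cause was not tested.

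Members at least 2-fold higher in endothelial-like nuclei numbered 7, and 14 with a pseudocount of 1 CPM, 19 with free RNA subtracted, 4 without doublet removal and 4 to 21 when 1 library was left out. Members lower in cardiomyocyte-like nuclei numbered 6, and 16, 1 (median-of-ratios scaling), 19 (free RNA subtracted) and 13 (clusters with a median of over 5000 UMIs left out, an alternative chosen after seeing the data). Members higher in macrophage-like nuclei numbered 3, and 5 with free RNA subtracted, 1 with at least 1000 UMIs and 1 to 6 with a library left out, and lower ones 0 and 3 (free RNA subtracted). Lower members in fibroblast-like nuclei numbered 0, and 3 (free RNA) and 1 (deep clusters left out).

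Spans of at least 2-fold numbered 12 in endothelial-like nuclei and 19 (pseudocount 1) or 21 (median of ratios), 22 in cardiomyocyte-like and 14 (median of ratios) or 6 (free RNA), 21 in macrophage-like and 10 (at least 1000 UMIs), and 16 in fibroblast-like and 10 (interferon genes kept in the clustering, where library 2 fell from 724 to 65 nuclei and was not used, so that 3 libraries stand against 4).

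Pooled over libraries, shares of nuclei with at least 3 members were 35.4% in endothelial-like, 12.7% in macrophage-like, 10.7% in fibroblast-like and 2.74% in cardiomyocyte-like nuclei. With at least 2 they were 59.1, 32.4, 28.5 and 10.2%, with at least 4 they were 20.0, 5.07, 4.22 and 0.838%, and thinned to 500 UMIs 15.9, 3.74, 3.41 and 0.728%. Leaving out 1 library gave 30.9 to 41.2, 10.1 to 32.9, 8.97 to 16.4 and 1.80 to 5.16%. Cardiomyocyte-like shares were 1.58% without the deep clusters and 4.25% without doublet removal, and the fibroblast-like share was 9.67% with interferon genes kept in the clustering. By the median over libraries, members with a ratio above 1.5 numbered 21 of 31 in cardiomyocyte-like nuclei (6.88% of other genes), 8 without deep clusters and 13 to 22 with a library left out, the lowest being 13 of 28 without library 4 (6.60%). In fibroblast-like nuclei they numbered 9 of 32 (2.65%), and 4 without deep clusters. Depth left 931 of 1909 endothelial-like and 1160 of 2376 fibroblast-like nuclei of library 1 out of the thinned shares.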
